A study of Mus musculus with 8 samples.

Results

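Of the 7 genes described here, 6 are nuclear genes whose proteins work in mitochondria, and 1, Nrf1, is the gene of a transcription factor that binds such genes. They are Ndufa4, Ndufa5, Ndufb6, Cox6c, Tomm5, Mrpl50 and Nrf1, 7 of the 49585 rows of a table of counts per Ensembl gene. They were chosen by symbol. All lie in 3 stretches of the genome where genes used by every cell are well counted. Most of the table cannot be read by name in that way, since Actb held 10 counts and B2m held 0 over all libraries.

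The RNA was poly(A) RNA of mouse leukemia cells from bone marrow labelled MA9, which commonly stands for MLL-AF9, a fusion oncogene. In the controls, Gata2 f/f, both Gata2 alleles were flanked by recombination sites and kept. In Gata2 KO, labelled Gata2 -/-, the gene was deleted. Gata2 encodes a transcription factor needed by blood stem cells. There were 4 libraries of each genotype, numbered 1 to 4, and all cells grew in IMDM medium with SCF at 20 ng/mL, IL-6 at 10 ng/mL, IL-3 and 15% serum. The labels name no Cre driver, no age and no separate animals, clones or cultures, so all p-values rest on the spread among these libraries, which may be technical.

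Mitochondria build their respiratory chain from subunits of 2 genomes. A small set is transcribed inside the organelle from mitochondrial DNA. All others are encoded in the nucleus, made in the cytosol and imported through the TOM complex of the outer membrane. The mitochondrial ribosome, itself made of nuclear-encoded proteins, translates the organelle's messages. NRF1 binds a GC-rich palindrome in promoters of many nuclear genes of this machinery.

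Total counts ranged from 1610369 to 6237748 per library, and the members from 562 to 7529 counts, so counting error was small for each of them. The libraries numbered 4 were the deepest of their genotypes. The Gata2 row held 4 counts in all and lies outside the readable stretches, so it does not check the genotypes. Nor could the cell type be checked, since all 9 myeloid marker rows (Ptprc, Spi1, Itgam, Mpo, Elane, Cd33, Kit, Hoxa9, Meis1) lie outside too. Of the rows for other cell types inside the stretches, those of B cells (Pax5, Cd72, Bach2) summed to at most 1.94 CPM (counts scaled to a common library total) in any library, and Hemgn, an erythroid and progenitor gene, to at most 0.912 CPM. The macrophage rows (Irf5, Tfec, Atp6v0d2) summed to 993 to 1295 CPM for Gata2 f/f against 1826 to 2112 CPM for Gata2 KO. Tfec made up most of this sum, at 940 to 1223 CPM and 1484 to 1868 CPM. Whether the leukemia cells themselves or other cells held these transcripts cannot be told here. The stromal and endothelial rows (Cav1, Cav2, Flnc, Matn2) summed to 37.4 to 55.8 CPM and 64.9 to 118 CPM, with Cav1 at 1 count in all. Cav2 made up most of that sum and was higher in Gata2 KO, Flnc was lower (2.48 to 7.50 CPM against 0.463 to 2.24 CPM), and Matn2 overlapped. Their part in the results below was not tested. In bulk RNA, fewer cells of a type and less RNA per cell cannot be told apart.

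Of these genes, 3 lie on mouse chromosome 4 of GRCm38, all on the minus strand. Ndufb6 (ENSMUSG00000071014.10) spans 40270591 to 40279421, Tomm5 (ENSMUSG00000078713.8) spans 45105208 to 45108114, and Mrpl50 (ENSMUSG00000044018.3) spans 49512596 to 49521093. On chromosome 6 lie Ndufa4 (ENSMUSG00000029632.7, 11900292 to 11907497, minus strand), Ndufa5 (ENSMUSG00000023089.12, 24518666 to 24528013, minus strand) and Nrf1 (ENSMUSG00000058440.14, 30047988 to 30153458, plus strand). Cox6c (ENSMUSG00000014313.14) lies on the minus strand of chromosome 15 from 35925886 to 35938246. The coordinates are those of GENCODE M21, which holds 6 of the 7 identifiers with the same version. Cox6c was matched without its version.

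Of the members, 3 share sequence with other annotated genes. Of the 659 exonic bases of Ndufb6, 257 (39.0%) are also exonic in Smim27 on the other strand, and 7.01% of those of Cox6c are in Vps13b. Because the library kit does not mark strand, such reads cannot be assigned to either gene. Among windows of 65 bases, the read length, 29.3% of those in Ndufb6 transcripts occur unchanged in another gene's transcripts, all in Smim27. The share was 7.24% for Cox6c (Vps13b and Cox6c2) and 3.72% for Tomm5 (Gm8069). For Ndufa4, Ndufa5, Mrpl50 and Nrf1 it was 0. Levels of Ndufb6 are the least certain for this reason.

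The letters NRF1 is known to bind were looked for in RefSeq promoter windows of GRCm38.p6, each with 250 bases before and 50 after a start of transcription. Windows were found for 6 of the 7 genes, Cox6c being the exception. The full palindrome (GCGCA, any base, then GCGC, on either strand) was found in the Ndufa5 promoter and in 4.60% of all 32851 windows. A shorter core, TGCGCA, was found in Ndufa5, where it overlaps the palindrome, and in Ndufb6, against 7.76% of all windows. The 4 stretches below are shown because they set the members with these letters beside Nrf1 itself and beside Tomm5, which has neither. They run 5′ to 3′ on the strand of the gene, and capitals mark the palindrome or the core.
Ndufa5, chr6:24527697-24527726, minus strand: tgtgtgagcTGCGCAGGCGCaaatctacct
Ndufb6, chr4:40279422-40279521, minus strand: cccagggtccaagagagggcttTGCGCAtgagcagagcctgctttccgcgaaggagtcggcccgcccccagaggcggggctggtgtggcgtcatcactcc
Nrf1, chr6:30047888-30047987, plus strand: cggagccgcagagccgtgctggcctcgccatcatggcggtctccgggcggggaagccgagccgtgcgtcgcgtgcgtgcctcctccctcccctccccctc
Tomm5, chr4:45108115-45108214, minus strand: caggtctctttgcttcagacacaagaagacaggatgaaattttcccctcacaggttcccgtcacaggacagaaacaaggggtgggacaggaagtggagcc

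The Ndufa5 palindrome begins 26 bases before 1 RefSeq start and 190 before another, inside an exon of a longer GENCODE transcript. Windows of Ndufa4, Tomm5, Mrpl50 and Nrf1 held neither set of letters, which says only that these letters are not in those windows. The letters CCGGAAG, a site for ETS factors such as GABP (in 8.86% of windows), were found in Ndufb6 alone. Those of a YY1 site (AANATGGCG, in 2.38%) were found in none of the 6. Only these letters were searched, so other forms of ETS or YY1 sites may lie in any of the windows. The upstream Nrf1 window was 77% G or C with 43 CG pairs, and a downstream one was 46.3% with 2, against medians of 52.7% and 7 over all windows. The other members' windows had 51.7% to 62.3% G or C and 7 to 22 CG pairs.

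All members were abundant, but the stretches were chosen where such genes are well counted, so this follows in part from the choice. Levels between genes are compared per kilobase of the principal transcript of GENCODE, on CPM scaled by TMM (a normalization of library size) and averaged over the 8 libraries. Ndufa4, first assigned to complex I of the respiratory chain and now known as a subunit of complex IV, was highest at 2712 CPM per kb, with libraries from 1875 to 3378. Cox6c, a structural subunit of complex IV, came next at 1295 (1091 to 1540). Then came Tomm5, a small subunit of the import complex, at 1059 (643 to 1289), and Ndufb6, a subunit of the membrane arm of complex I, at 507 (361 to 633). Ndufa5, a subunit of the peripheral arm of complex I, was at 457 (318 to 719), Nrf1 at 209 (189 to 236) and Mrpl50, a protein of the large mitochondrial ribosomal subunit, at 169 (115 to 205). The ranges of Cox6c and Tomm5 overlapped, and Cox6c was the higher in 7 of 8 libraries. Those of Ndufb6 and Ndufa5 overlapped too, with Ndufb6 the higher in 6 of 8, so the order within these neighbours is not firm. Nrf1 and Mrpl50 overlapped in range, but Nrf1 was the higher in 8 of 8. The order depends on the gene model. Per kilobase of all annotated exons Cox6c was at 268 and Nrf1 at 38.2 CPM per kb, so that Cox6c came after Ndufa5, at 388, and Nrf1 after Mrpl50, at 169.

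The question of the comparison was how these genes differ between leukemia cells without and with Gata2. Of the 7, Tomm5, Mrpl50 and Nrf1, were lower in Gata2 KO in all 4 replicate pairs, as were 23.4% of all rows tested. For Ndufa4, Ndufb6 and Cox6c the log2 fold change lay between -0.04 and 0.06. No member passed an adjusted p of 0.05 when genotype alone was modelled. Tomm5, Mrpl50 and Ndufa5 passed as lower once replicate numbers were used as a block, in a fit where 16.7% of all rows, and 24.1% of those in the readable stretches, passed as lower. Log2 fold changes and levels below are on TMM-scaled CPM, Gata2 KO minus Gata2 f/f.

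**Figure D1:**
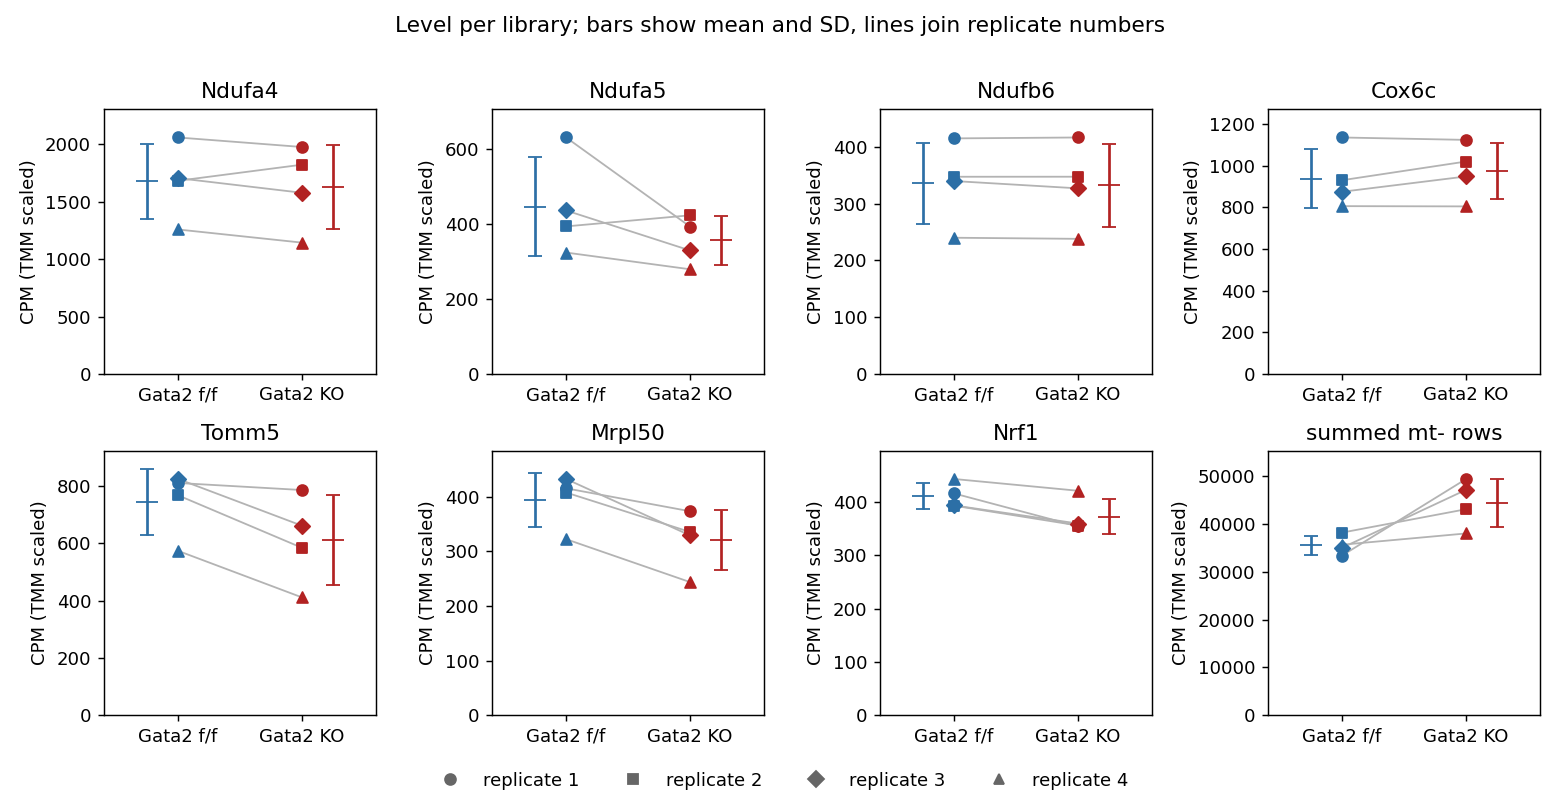
Level of each member and of the summed mitochondrial rows in the 8 libraries, in TMM-scaled CPM on axes that start at 0. Points are libraries (shape gives the replicate number), grey lines join libraries of the same number, and bars give the mean and SD of 4 libraries. Tomm5 and Mrpl50 lines all point down, and the libraries numbered 4 are lowest for 6 of the 7 genes.

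Among the complex I genes, Ndufa5 was at 630, 393, 435 and 323 CPM in Gata2 f/f replicates 1 to 4 and at 392, 422, 329 and 279 CPM in Gata2 KO replicates 1 to 4. The genotypes overlapped, and Gata2 f/f replicate 1 stood highest. Within pairs the log2 difference of Ndufa5 was -0.68, 0.10, -0.41 and -0.21, so replicate 2 went the other way. The log2 fold change of Ndufa5 was -0.33 ± 0.20 (SE) with adjusted p = 0.345 in edgeR, and -0.30 ± 0.09 with adjusted p = 0.0142 with the block. Left without both libraries numbered 3, the blocked fit of Ndufa5 no longer passed (edgeR adjusted p = 0.0737). Without those numbered 1 its log2 fold change was -0.19, and it still passed (adjusted p = 0.019). With genotype alone and without Gata2 f/f replicate 1 the log2 fold change of Ndufa5 was -0.11.

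Ndufb6 was at 415, 348, 340 and 240.05 CPM in Gata2 f/f replicates 1 to 4 and at 417, 348, 327 and 238 CPM in Gata2 KO. The 2 sets were nearly equal pair by pair, with log2 differences of Ndufb6 between -0.06 and 0.01. Its log2 fold change was -0.01 ± 0.19 (edgeR adjusted p = 0.98), and -0.02 ± 0.06 with the block (adjusted p = 0.87). Scaling to the totals of the readable stretches, or no filter on low counts, turned its sign.

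Among the complex IV genes, Ndufa4 was at 2061, 1683, 1706 and 1259 CPM in Gata2 f/f replicates 1 to 4 and at 1978, 1824, 1579 and 1144 CPM in Gata2 KO. The range within either genotype was wider than the difference between them. Ndufa4 had a log2 fold change of -0.04 ± 0.19 (edgeR adjusted p = 0.927), and -0.05 ± 0.06 with the block (adjusted p = 0.566).

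Cox6c was at 1136, 931, 875 and 806 CPM for Gata2 f/f and at 1125, 1021, 949 and 805 CPM in Gata2 KO. Replicate 1 was highest and replicate 4 lowest in both. It was higher in Gata2 KO in 2 pairs and lower in 2. Cox6c alone of the 7 had a positive log2 fold change, 0.06 ± 0.14 (edgeR adjusted p = 0.857), and 0.06 ± 0.06 with the block (adjusted p = 0.49). That sign turned without Gata2 f/f replicate 4 or without Gata2 KO replicate 1.

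Tomm5 was at 810, 767, 824 and 573 CPM in Gata2 f/f replicates 1 to 4 and at 785, 584, 661 and 411 CPM in Gata2 KO. The genotypes overlapped, since Gata2 KO replicate 1 lay above Gata2 f/f replicates 2 and 4. Every pair was lower in Gata2 KO, by log2 differences of -0.04, -0.39, -0.32 and -0.48. The log2 fold change of Tomm5 was -0.29 ± 0.19 (edgeR adjusted p = 0.384), and -0.31 ± 0.07 with the block (adjusted p = 0.002). It passed in each blocked fit that left out both libraries of 1 number (adjusted p = 2.94e-08 to 0.0435). With genotype alone the log2 fold change of Tomm5 was -0.13 without Gata2 KO replicate 4 and -0.43 without Gata2 KO replicate 1.

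Mrpl50 was at 415, 408, 432 and 322 CPM in Gata2 f/f replicates 1 to 4 and at 373, 335, 329 and 244 CPM in Gata2 KO. The genotypes overlapped only through Gata2 f/f replicate 4, which lay below 3 of the Gata2 KO libraries. The pairs of Mrpl50 differed by -0.15, -0.28, -0.39 and -0.40 on the log2 scale. Its log2 fold change was -0.30 ± 0.14 (edgeR adjusted p = 0.218), and -0.31 ± 0.07 with the block (adjusted p = 0.0011). It also passed in each blocked fit without 1 number (adjusted p = 1.22e-06 to 0.0229), and in edgeR with genotype alone once the number 4 pair was dropped (0.0413). With genotype alone and without Gata2 KO replicate 4 the log2 fold change of Mrpl50 was -0.19.

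Nrf1 was the steadiest of the 7, with a coefficient of variation of 8.53% over the 8 libraries against 13.6% to 26.8% for the others. It was at 416, 393, 394 and 443 CPM in Gata2 f/f replicates 1 to 4 and at 354, 356, 360 and 421 CPM in Gata2 KO. The 3 Gata2 KO libraries numbered 1 to 3 lay below every Gata2 f/f library, and only replicate 4, at 421, lay among them. The pairs of Nrf1 differed by -0.23, -0.14, -0.13 and -0.07 on the log2 scale. Its log2 fold change was -0.14 ± 0.10 (edgeR adjusted p = 0.434), and -0.14 ± 0.06 with the block (adjusted p = 0.0865), so Nrf1 did not pass in either fit.

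In all, 0 of 7 members passed in edgeR with genotype alone, where 12.5% of the 6580 rows tested passed, and 12.3% of the 253 in the readable stretches. At an unadjusted p under 0.05 the count was also 0, and DESeq2 called 0. With the block 3 of 7 passed, all lower in Gata2 KO, beside 35.5% of all rows in either direction and 16.7% lower. In the readable stretches 45.5% passed with the block in either direction. The median log2 fold change was -0.14 over the 7 members and -0.01 over all rows tested. In CPM, 0 of 7 had genotypes that did not overlap, beside 19.1% of all rows. Whether the fold changes of the members differ from each other was not tested.

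**Figure D2:**
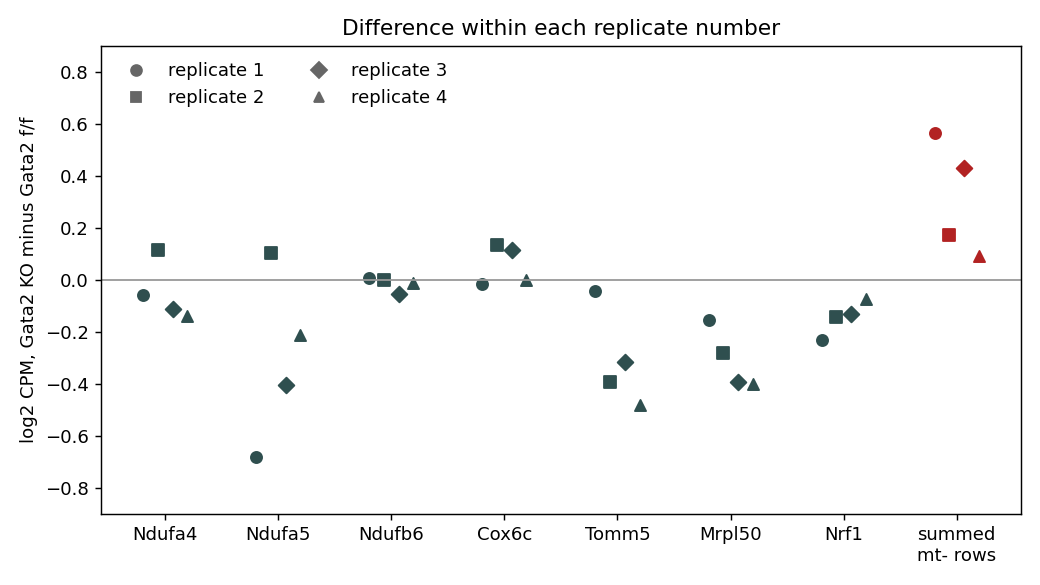
Log2 difference in TMM-scaled CPM between the Gata2 KO and the Gata2 f/f library of each replicate number, for the 7 members and the summed mitochondrial rows. Each point is 1 pair. Tomm5, Mrpl50 and Nrf1 lie below 0 in all 4 pairs, while the summed mitochondrial rows lie above 0 in all 4.

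For all 7 genes the range of log2 CPM within either genotype was wider than the mean difference between the genotypes. A range of 4 libraries and a difference of means are unlike measures. The SD of log2 CPM within genotypes was smaller than that difference for Mrpl50 (0.23 against 0.31) and Nrf1 (0.103 against 0.145). It was larger for the other members. In both genotypes the library numbered 4 was lowest for 6 of the 7 members, a pattern that 24.1% of all rows tested share. For Nrf1 it was highest in both, as for 26.4% of rows. Ndufa4 ranged over 0.71 log2 units within Gata2 f/f and 0.79 within Gata2 KO, against a mean difference between the genotypes of 0.05. For Mrpl50 the ranges were 0.42 and 0.62 against a mean difference of 0.31. Depth moves with this pattern, since libraries numbered 4 held 5480086 and 6237748 counts and no other held over 4129492; its part in the result was not tested.

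For each member the 2 rows of the readable stretches with the most similar log2 CPM over the 8 libraries were found among 252, as a description. Ndufa4 was most like Ndufb6 (Pearson r = 0.98) and Gm12504 (0.97), and Ndufb6 was most like Erp44 (0.98), a chaperone of the early secretory pathway, and Ndufa4. Tomm5 was most like Mrpl50 (r = 0.97) and Impad1 (0.97), and Mrpl50 most like Ints8 (0.99), a subunit of the Integrator complex, and Impad1 (0.97). Cox6c was most like Ywhaz (0.96), a 14-3-3 protein gene, and 2610001J05Rik (0.94). Ndufa5 was most like Rida (0.94) and Rars2 (0.91), the gene of the mitochondrial arginyl-tRNA synthetase. Nrf1 was most like Rbm28 (0.97) and Nfx1 (0.96), and none of the other 6 members was among its nearest rows. How far these values rest on the libraries numbered 4 was not tested.

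Set against the summed transcripts of the mitochondrial genome, 3 of the 7 members passed as lower in Gata2 KO, and 5 with the block; Ndufb6 and Cox6c passed in neither fit. This denominator was itself higher in Gata2 KO, and it moves the median log2 fold change of all rows tested to -0.31. The 37 rows named mt- summed to 33391, 38178, 35011 and 35645 CPM in Gata2 f/f replicates 1 to 4 and to 49373, 43062, 47121 and 37998 CPM in Gata2 KO, on the TMM scale. Each pair was higher in Gata2 KO, by 0.56, 0.17, 0.43 and 0.09 log2 units, and the genotypes overlapped on this scale. As a share of counts the sum rose from 3.58 ± 0.329% to 4.40 ± 0.341% (SD, n = 4 each; exact two-sided permutation p = 0.0286, the smallest that 70 groupings allow, and 0.125 with swaps within pairs, the smallest that 16 swaps allow). The row of mt-Co1, a catalytic subunit of complex IV, held 38.7% of the sum. Next came mt-Nd1 (15.3%), mt-Cytb (13.3%) and mt-Rnr2 (9.90%). Some rows were nearly empty, with 264 counts for mt-Co2, 387 for mt-Co3 and 210 for mt-Atp6 over all libraries. The sum is therefore not a measure of all mitochondrial RNA. The names of these rows were taken as given.

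For every 100 counts in the mt- rows, Mrpl50 had 1.11 ± 0.161 counts in Gata2 f/f and 0.719 ± 0.0616 in Gata2 KO (SD, n = 4 each). Its highest Gata2 KO library, at 0.779, lay below its lowest Gata2 f/f library, at 0.904. Tomm5 had 2.10 ± 0.374 and 1.36 ± 0.210 counts, and its genotypes did not overlap either, at 1.59 against 1.61 where they came closest. The remaining 5 members overlapped. Ndufa4 had 4.75 ± 1.10 and 3.65 ± 0.568 counts per 100, and Cox6c 2.65 ± 0.512 and 2.20 ± 0.160. Nrf1 had 1.16 ± 0.104 and 0.854 ± 0.175 counts per 100, with the Gata2 KO libraries from 0.718 to 1.11.

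With the summed mt- counts in place of the library size, Mrpl50 had a log2 fold change of -0.63 ± 0.14 (edgeR adjusted p = 0.00869), Tomm5 of -0.63 ± 0.16 (0.0166) and Ndufa5 of -0.66 ± 0.21 (0.0351). Nrf1, at -0.44 ± 0.15 (adjusted p = 0.0511), Ndufa4, at -0.38 ± 0.18 (0.125), Ndufb6, at -0.35 ± 0.18 (0.154), and Cox6c, at -0.27 ± 0.15 (0.185), did not pass in edgeR. Nrf1 passed when the 2 rRNA rows were left out of the sum (0.0477), but not when mt-Co1 was left out (log2 fold change -0.38, edgeR adjusted p = 0.0901). These 3 of 7 stand beside 24.8% of all rows tested, 20.4% lower and 27.7% lower in the readable stretches. The members' median was -0.44, against -0.31 over all rows. The mt- ratio was lower in all 4 pairs for 7 of 7 members, beside 47.5% of all rows, and without overlap in 2 of 7, beside 23.1%. In the blocked fit the members, which share the mt- sum as denominator, had nearly equal SE, from 0.153 for Ndufb6 to 0.155 for Ndufa5. Their calls are therefore not independent of each other. With the block 5 of 7 passed, Nrf1 (edgeR adjusted p = 0.00984) and Ndufa4 (0.0428) as well. This stands beside 44.8% of all rows and 37.5% lower, or 43.5% lower in the readable stretches. Ndufa4 lost this call in each blocked fit without 1 replicate number (edgeR adjusted p = 0.0582 to 0.306), and Nrf1 (0.134) and Ndufa5 lost it without number 3. In edgeR without the block Ndufa5 lost its call without Gata2 f/f replicate 1 (log2 fold change -0.40, adjusted p = 0.103) or 3 (0.0769), or Gata2 KO replicate 1 (0.0728) or 3 (0.106). Tomm5 lost its call without Gata2 f/f replicate 3 (0.0609), whereas Mrpl50 kept it whichever 1 library was left out (adjusted p = 0.00242 to 0.0392).

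**Figure D3:**
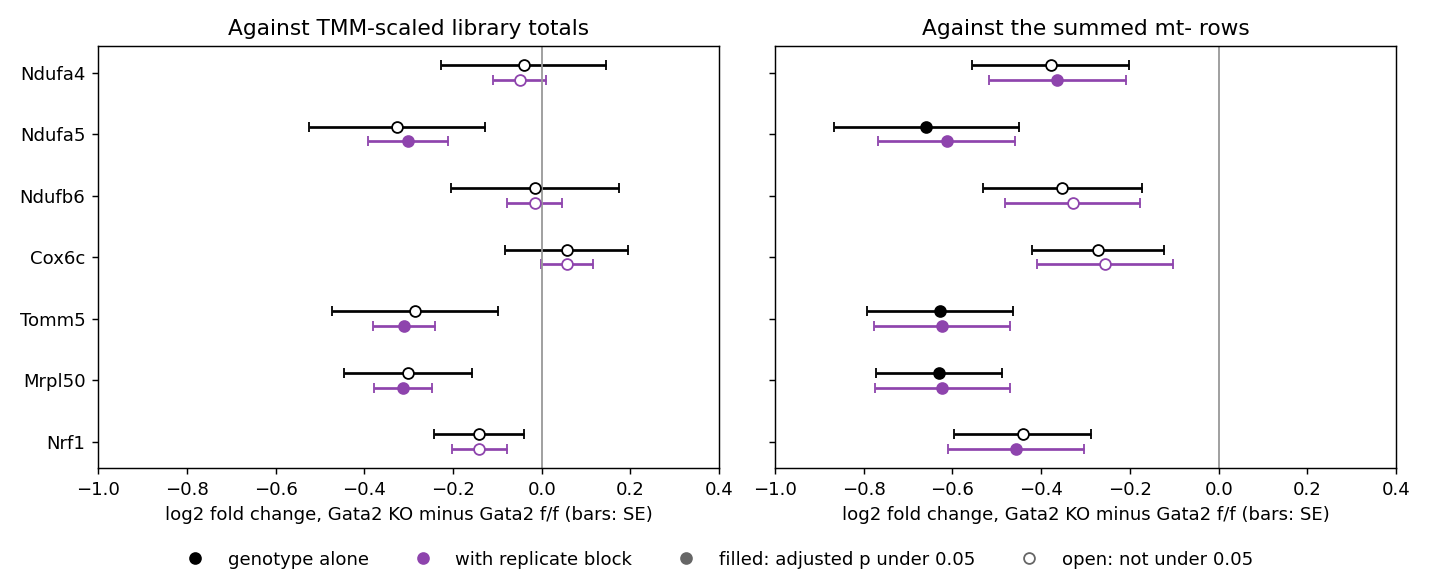
Log2 fold change, Gata2 KO minus Gata2 f/f, of the 7 members with SE, against TMM-scaled library totals (left) and against the summed mt- rows (right). Black points are edgeR with genotype alone, purple points add the replicate block, and filled points have an adjusted p under 0.05. On the left 0 black and 3 purple points are filled, and on the right 3 and 5.

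Other nuclear genes of mitochondrial proteins in the same stretches were taken from a list of 14, of which 13 were tested. Aass, a lysine-degrading enzyme of the mitochondrial matrix, had 0 counts in every library, which allows up to 0.481 to 1.86 CPM for counting error. With genotype alone 0 of 13 passed in edgeR, beside 12.5% of all rows and 12.3% of those in the readable stretches, and 1 had an unadjusted p under 0.05. With the block 6 of 13 passed, 5 lower and 1 higher in Gata2 KO, beside 16.7% of all rows lower and 18.8% higher. In the readable stretches 45.5% passed in either direction and 24.1% as lower. Their median log2 fold change without the block was -0.15, against -0.01 over all rows.

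Stoml2, a prohibitin-like protein of the inner membrane, was at 789, 695, 670 and 553 CPM in Gata2 f/f replicates 1 to 4 and at 593, 532, 543 and 457 CPM in Gata2 KO. It was lower in 4 of 4 pairs, and its genotypes met only at Gata2 f/f replicate 4. Its log2 fold change was -0.35 ± 0.13 (edgeR adjusted p = 0.106), and -0.34 ± 0.06 with the block (0.000225). Ndufaf6, a complex I assembly factor, had means of 103 ± 18.8 CPM with Gata2 and 80.2 ± 13.9 CPM without it (SD, 4 libraries each) and passed with the block (edgeR adjusted p = 0.0024). Rars2 (adjusted p = 0.0194), Coq3, an enzyme of ubiquinone synthesis (0.0143), and Chchd7 (0.043) were the other 3 lower with the block in edgeR.

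Aldh1b1, a mitochondrial aldehyde dehydrogenase, was the 1 higher gene with the block, at 166 ± 30.8 CPM with Gata2 and 191 ± 8.54 CPM without it (SD, 4 libraries each; edgeR adjusted p = 0.382, and 0.0319 with the block). Fbxl4, which acts in mitochondrial quality control, was the only tested gene of this list whose genotypes did not overlap, at 55.5 to 65.6 CPM for Gata2 f/f against 68.0 to 74.8 CPM for Gata2 KO. It did not pass in edgeR (adjusted p = 0.325) nor with the block (0.137). Genotypes without overlap in CPM were seen for 19.1% of all rows tested. Fam173b did not pass in either edgeR fit (adjusted p = 0.475, and 0.142 with the block).

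Ndufaf4, a further complex I assembly factor, was not on that list and was named after its values were seen. It was at 479, 461, 417 and 341 CPM in Gata2 f/f replicates 1 to 4 and at 395, 315, 290.2 and 251 CPM in Gata2 KO. The genotypes overlapped through Gata2 f/f replicate 4, and its log2 fold change was -0.44 ± 0.15, given as a description because it was picked for this difference. Chchd7, Ndufaf6, Pdp1, Decr1, Coq3, Ndufaf4, Fbxl4 and Lyrm2 lie where no gene used by every cell checks the row names on both sides nearby. Their names are less certain than those of the members within a stretch. Mrpl50 and Ndufa4 lie at the ends of their stretches, so other rows check their names only from inside.

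**Figure D4:**
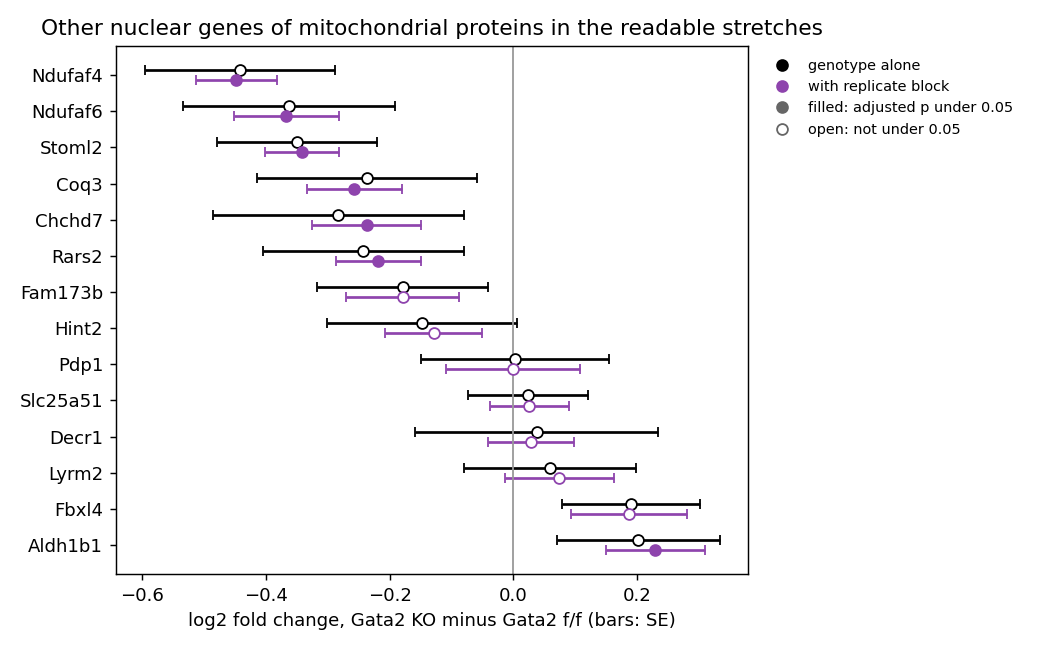
Log2 fold change, Gata2 KO minus Gata2 f/f, with SE, of the 13 listed nuclear genes of mitochondrial proteins tested in the readable stretches and of Ndufaf4. Black points are edgeR with genotype alone and purple points add the replicate block; filled points have an adjusted p under 0.05. No black point is filled, 5 purple points of listed genes to the left of 0 are, and 1 to the right, Aldh1b1. Ndufaf4 was added for its difference and is shown as a description.

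Elsewhere in the table the same families cannot be followed. Of 193 protein-coding rows outside the stretches named for respiratory chain subunits, TOM and TIM proteins or mitochondrial ribosomal proteins, 142 (73.6%) lay under 1 CPM in the pooled libraries. Inside the stretches this held for 0 of 8. The stretches were chosen where such genes are well counted, and Mrpl50 and Ndufa4 are among their ends. The contrast therefore does not check the names inside. Of 18 regulator rows other than Nrf1, such as those named Gabpa, Ppargc1a and Tfam, 9 lay under 1 CPM. Of the 41 family rows that were tested by name alone, 2 were higher and 2 lower in Gata2 KO in edgeR, and 7 and 11 with the block. Over all rows tested, 12.5% passed in either direction with genotype alone. With the block 18.8% passed as higher and 16.7% as lower.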

How the data were processed

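For 8 libraries of paired reads of 65 bp, the authors deposited raw counts per Ensembl gene as whole numbers. The submitters' processing notes name mm10, kallisto, HTSeq and DESeq2. Which of them made the counts, and on which annotation, is not given in the sources used here. Each column carries a sample description, which gave its sample, and GENCODE M21 was joined by identifier without version. The readable stretches run between Rps20 and Mrpl50 (chromosome 4, 3831334 to 49521093), Ndufa4 and Ube2h (chromosome 6, 11900292 to 30304539) and Cct5 and Atp6v1c1 (chromosome 15, 31590800 to 38692446), and hold 977 rows.

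Tests used the quasi-likelihood method of edgeR 4.0.16 (R 4.3.3) on genotype alone, with TMM and edgeR's own filter (minimum count 10), and Benjamini-Hochberg adjustment over 6580 rows. SE was taken as the absolute log2 fold change divided by the square root of F. A further fit used the summed mt- counts as library size. Alternatives were a replicate block, DESeq2 1.42.0, other scalings, no filter, other mt- sums and fewer libraries. Tested on simulated data for this comparison with 6580 genes, 71% of 100 changes of 1 log2 unit were recovered, and 8 of 6380 unchanged genes were called. The simulated libraries held no replicate structure and were fitted with genotype alone. Smaller changes, such as those of the members, were not simulated, nor were the fits with the block or the mt- sum.

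The genotypes share replicate numbers in the titles. Deviations from genotype means correlated at 0.333, 0.213, 0.243 and 0.804 for numbers 1 to 4. Since each was over 0.1, same-numbered libraries were treated as pairs. Differently numbered libraries among 1 to 3 correlated at 0.0948 to 0.182, below each same-numbered value. Most of them also passed 0.1, so that limit alone does not mark pairs among numbers 1 to 3. Libraries numbered 4 stood apart, at -0.474 to -0.333 with the other numbers. Deviations from a genotype mean sum to 0 over its 4 libraries. These negative values, and part of the positive ones among numbers 1 to 3, can therefore follow from the 0.804 and are not separate support for pairs. What a number stands for is not in the labels. Totals ranged from 1610369 to 6237748 counts. A count of 0 allows up to 3 counts, or 0.481 to 1.86 CPM by library, for counting error only. The members, the lists and the tests were chosen with earlier results of these data known. Named were all 7 members, up to 8 listed genes of the smallest p, the 2 most similar rows per member, mt-Co1 and Gata2. Other names serve as markers or checks.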

Additional observations from a re-analysis of the deposited data

Results flagged for a closer look

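Nrf1 in Gata2 KO was marked by 1 library far from the other 3. Replicate 4 was at 421 CPM, while the others lay between 354 and 360, so the gap to the nearest made up 0.92 of the whole range, above Dixon's 95% critical value for 4 samples. In all, 46 groups of 4 libraries were examined in this way, and chance marks about 1 in 20. When it alone was left out, Nrf1 had a log2 fold change of -0.21 (edgeR adjusted p = 0.227). Gata2 f/f replicate 4, at 443 CPM, was the highest of its genotype, and with both libraries numbered 4 left out the value was -0.16 (0.215).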

How the results depend on the processing

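With the replicate block, rows called by genotype went from 822 to 2339, members from 0 to 3, and listed other genes from 0 to 6. Against the mt- sum, rows went from 1630 to 2949 and members from 3 to 5. With the block and without both libraries of number 1, 2, 3 or 4, rows numbered 2564, 1992, 1797 and 1727, and members 3, 3, 2 and 3. Against the mt- sum, the same fits called 2481, 2168, 1368 and 2888 rows and 4, 4, 2 and 5 members. Of these, all but the fit without number 4 on library totals were chosen after seeing the data. Without number 4 and without the block, 1437 rows and 1 member, Mrpl50, were called, and against the mt- sum 3128 rows and 6 members.

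With any 1 library left out, 548 to 1103 rows and 0 to 0 members were called, and 0 to 3 of the listed genes, 3 without Gata2 f/f replicate 4. Against the mt- sum, the rows ran from 753, without Gata2 KO replicate 3, to 2732, without Gata2 KO replicate 4, and the members from 1, without Gata2 f/f replicate 3, to 5, without Gata2 f/f replicate 4. An mt- sum without the 2 rRNA rows called 4 members, Nrf1 among them, and one without mt-Co1 called 3. The mt- share differed by 0.667 to 0.946 percentage points, and by 0.815 when libraries were swapped within pairs (exact permutation p = 0.125). Its exact permutation p was 0.0571 with 1 Gata2 f/f library left out and 0.0286 with 1 Gata2 KO library left out, whichever it was.

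Signs turned only for the 3 genes nearest to 0. Ndufb6 was at 0.022 with totals of the readable stretches, 0.00126 with no filter, 0.10 with Gata2 f/f replicate 1 left out and 0.12 with Gata2 KO replicate 4 left out. Ndufa4 was at 0.07 and 0.10 without those libraries and at -0.16 without Gata2 f/f replicate 4, where Ndufb6 was also at -0.16. Cox6c was at -0.015 with Gata2 f/f replicate 4 left out, at -0.0205 with Gata2 KO replicate 1 left out, and at 0.16 without Gata2 f/f replicate 1. The cause of these changes was not tested. DESeq2, library totals with or without mt- rows, totals of the readable stretches and no filter each called 0 members.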
